A study of Mus musculus with 4 samples.

Results

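Interferon-inducible GTPases of 2 families were followed in young and old intestinal stem cells (ISCs). They were 5 guanylate-binding protein genes (GBP), Gbp2, Gbp3, Gbp6, Gbp7 and Gbp9, and 5 immunity-related GTPase genes (IRG), Irgm1, Irgm2, Igtp, Iigp1 and Ifi47. These 10 genes were taken by symbol from 52459 genes listed. The ISCs were FACS-isolated from small intestinal crypts of wild-type C57/Bl6 mice by 6 surface markers (CD24 medium, CD166+, high CD44, low GRP78, high EPHB2 and EPCAM+) after removal of CD31+ and CD45+ cells, and no group was treated. Young ISCs (ISC_2mth) came from mice of 2 months and old ISCs (ISC_22mth) from mice of 22 months. Each age had 2 pools of 5 animals and each pool gave 1 full length (FL) RNA-seq library, so that a value is the average of a pool and single animals cannot be resolved. Because the RNA is bulk, fewer cells that express a gene and less of its RNA per cell cannot be told apart.

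GBP and IRG genes encode the GTPases of cell-autonomous immunity, the defence that a single infected cell mounts by itself. Their transcription is switched on mainly by interferon gamma, in part through the transcription factor IRF1, and more weakly by type I interferon. The GBPs are large dynamin-like GTPases that coat bacteria and pathogen vacuoles and promote inflammasome activation. Effector IRGs such as Iigp1 and Ifi47 attack vacuole membranes, whereas the regulatory IRGs Irgm1, Irgm2 and Igtp sit on the cell's own membranes and hold the effectors inactive there. The genes lie in clusters, and in the GENCODE vM21 annotation of GRCm38 (the build to which the reads were aligned) all 10 are protein-coding. Gbp7, Gbp3 and Gbp2 lie within 107.7 kb of chromosome 3, from 142530342 to 142638008. Gbp9 and Gbp6 lie within 216.1 kb of chromosome 5 (105077630 to 105293698), and Irgm1, Ifi47, Igtp and Irgm2 lie on chromosome 11 between 48861968 and 58222782.

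Interferons act on such genes through short elements near the transcription start, and these stretches are shown because members that share the elements did not share the same values with age. RefSeq windows (GRCm38.p6) were read for 7 of the 10 members, not for Gbp6, Gbp9 and Iigp1. In the 250 bases before each start, both strands were searched for the core of the interferon-stimulated response element (ISRE), which is GAAA followed after any 2 bases by a second GAAA, and of the gamma-activated site (GAS), TTCNNNGAA. An ISRE core was found in 6 of the 7 members, against 3.46% of 27025 genes with such windows, and a GAS core in 3 of the 7, against 8.13% of genes. Each sequence runs 5′ to 3′ on the strand of its gene, with the cores in capitals.
Gbp3 (chr3:142559934-142560043, plus strand): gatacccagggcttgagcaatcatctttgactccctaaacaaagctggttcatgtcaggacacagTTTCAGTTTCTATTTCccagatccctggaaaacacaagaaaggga
Gbp2 (chr3:142620553-142620631, plus strand): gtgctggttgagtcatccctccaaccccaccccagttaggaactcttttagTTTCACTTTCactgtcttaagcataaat
Gbp7 (chr3:142530226-142530335, plus strand): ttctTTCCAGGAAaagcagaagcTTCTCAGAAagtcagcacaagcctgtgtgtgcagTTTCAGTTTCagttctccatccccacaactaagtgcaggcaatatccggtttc
Igtp (chr11:58199446-58199555, plus strand): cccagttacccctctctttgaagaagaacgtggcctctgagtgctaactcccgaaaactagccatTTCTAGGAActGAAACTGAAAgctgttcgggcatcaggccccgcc
Irgm2 (chr11:58214867-58214976, plus strand): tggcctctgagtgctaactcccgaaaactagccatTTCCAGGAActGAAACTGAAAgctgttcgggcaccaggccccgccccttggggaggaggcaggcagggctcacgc
Irgm1 (chr11:48871421-48871450, minus strand): GAAATAGAAACCGAAActgattctcaattc
Ifi47 (chr11:49076477-49076586, plus strand): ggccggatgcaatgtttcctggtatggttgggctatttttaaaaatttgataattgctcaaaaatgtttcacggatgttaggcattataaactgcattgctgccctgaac
In Gbp3 and Irgm1, 2 ISRE cores overlapped. In Gbp2 the core began 59 bases and in Gbp7 53 bases before the start, and Gbp7 also held 2 GAS cores. In the neighbours Igtp and Irgm2 a GAS core stood 2 bases before the ISRE core, and the last 80 bases of the Igtp window matched Irgm2 at 78 positions when shifted by 30 bases. The Ifi47 window held neither core. The windows lie before the RefSeq starts, and GENCODE vM21 has transcripts of Irgm1 and Gbp2 that start further upstream, so that the cores marked in these genes lie inside exons annotated there. Irgm2 also starts further upstream in that annotation, at 58199618, close to the start of Igtp at 58199556, so that the Irgm2 window lies within the annotated gene. A second window of Gbp3, at a start further downstream, held no core. A match of letters is a description of the window and does not show that a factor binds there.

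Counts on genes came to between 11662654 and 15975698 per library, of which mitochondrially encoded genes took 62.6% and 65.7% in young and 73.8% and 72.9% in old ISCs. Levels are given as CPM after TMM normalization, in which 1 read was worth between 0.0662 and 0.0818 CPM and a floor of 3 reads between 0.198 and 0.245 CPM. All 10 ISC markers passed the filter and none was called with age, with Lgr5 at 231 CPM in young and 207 CPM in old ISCs (mean, n = 2 pools). The nearest to a call was Axin2, at 138 and 100 CPM (log2 fold change -0.46, edgeR FDR = 0.051). At an unadjusted edgeR p under 0.05 there were 6 of the 10, Axin2, Sox9, Rgmb and Tnfrsf19 lower and Ascl2 and Slc12a2 higher, against 2316 of all 13692 genes tested. Of 5 genes of antigens used in the sort, Cd24a was called higher, at 306 and 491 CPM (log2 fold change 0.68, edgeR FDR = 0.0035), and Ephb2 was lower without overlap, at 55.2 and 38.6 CPM, and not called (edgeR FDR = 0.058). Of 24 leukocyte markers, 9 were at 0 in all 4 libraries, among them Cd3d, Cd3g, Cd4, Cd79a, Itgax, Adgre1, Tyrobp and Cd53. Others had a few reads. Cd8a had 1 and 0 in young and 4 and 3 in old ISCs, Gzma 0 and 0 against 6 and 1, and Ms4a1 2 and 3 against 8 and 0. In the other direction, Trac had 1 and 3 against 0 and 0, Itgal 1 and 8 against 1 and 1, and Laptm5 0 and 7 against 1 and 0. A gene was tested if it had more than 5 reads and more than 1 CPM of its library total in at least 1 pool. Of the members, 6 were tested, among 13692 genes in all, and Gbp2, Gbp6, Gbp9 and Iigp1 were not.

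Of the GBP and IRG genes, Ifi47 was the member that rose with age by edgeR's quasi-likelihood test at FDR under 0.05, and none fell. This is 1 of the 6 tested, where 1.63% of all genes tested were called higher in old ISCs. Reads summed over the 10 members were 325 and 348 in the young pools and 698 and 477 in the old pools, or 22.4 and 23.0 CPM against 52.7 and 39.0 CPM. Old pools exceeded young pools without overlap in 5 of the 10 members (Ifi47, Irgm1, Irgm2, Gbp7 and Gbp6), 4 of them tested, against 24.0% of all genes tested. ISC_22mth pool 1 had the highest level of the 4 pools in 9 of the 10 members, all but Gbp9, and in 6 of 6 tested members, against 25.3% of all genes tested. The median log2 fold change of the 6 was 1.25, also with Gbp3 set at the lower bound of its fold, and that of all genes tested was -0.005. As Gbp3 passed the filter through ISC_22mth pool 1 alone, these figures over the tested members are a description and not a test of the family.

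**Figure D1:**
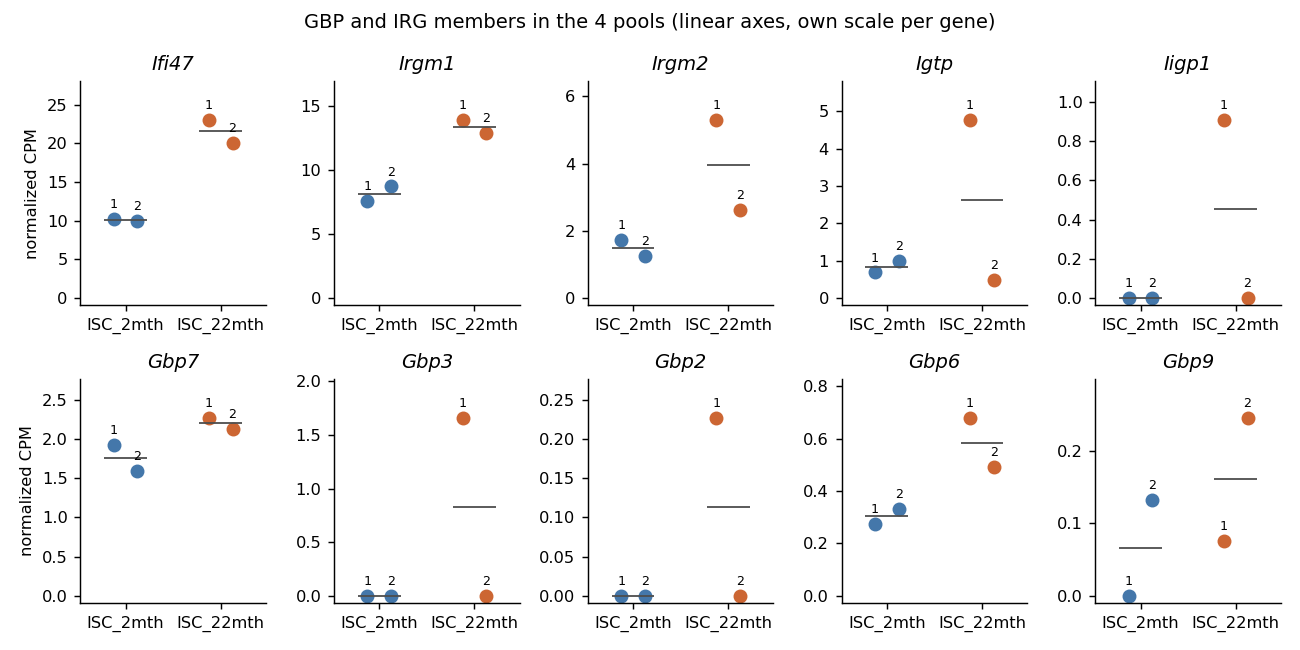
Normalized CPM (linear y axis, its own scale for each gene) of the 10 members in 2 ISC_2mth pools (blue) and 2 ISC_22mth pools (orange), with pool numbers above the points and horizontal lines at the mean of each age. Ifi47 and Irgm1 were higher in both old pools, whereas Igtp, Iigp1 and Gbp3 were high in ISC_22mth pool 1 only, and Gbp2 had its 3 reads there.

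Ifi47 encodes an effector IRG. Its counts were 148 and 151 in the young pools and 304 and 246 in the old pools. Normalized expression was 10.1 ± 0.145 CPM in young and 21.5 ± 2.02 CPM in old ISCs (mean ± SD, each n = 2 pools). The ages did not overlap, and the pools of an age lay close together. This was a log2 fold change of 1.09 with a standard error of 0.18 (edgeR FDR = 0.0028). It had FDR under 0.05 in all 15 alternative fits, with values between 0.60, when libraries were scaled by total counts, and 1.19. Without ISC_22mth pool 1 it was 1.00 (edgeR FDR = 0.00080). Exons of Ifi47 overlap those of the olfactory receptor gene Olfr56 and of Gm12188, a locus on the opposite strand, over 217 bp, which is 8.8% of its exonic length.

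The 3 regulatory IRGs did not share one pattern over the pools. Irgm1, which also takes part in autophagy, had counts of 110 and 132 in young and 184 and 158 in old ISCs, or 8.16 ± 0.817 and 13.4 ± 0.694 CPM (mean ± SD, n = 2 pools each). Each old pool exceeded each young pool by more than the spread within an age. Its log2 fold change of 0.72 (standard error 0.20) did not reach the threshold (edgeR FDR = 0.074). Irgm1 was called in 3 of 15 alternatives, among them the likelihood ratio test (edgeR FDR = 0.034) and the fit without ISC_22mth pool 2 (edgeR FDR = 0.038), and its value was between 0.23 and 0.82 over the 15 alternatives.

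Irgm2 had counts of 25 and 19 in young and 70 and 32 in old ISCs. These were 1.72 and 1.26 CPM against 5.29 and 2.62 CPM, so that the lower old pool still lay above the young pools. The log2 fold change was 1.41 (standard error 0.43, edgeR FDR = 0.098), and it was 0.81 without ISC_22mth pool 1 and 1.83 without ISC_22mth pool 2. Irgm2 was called in the second of these fits (edgeR FDR = 0.0038) and not in the first (edgeR FDR = 0.52), and in 4 of 15 alternatives in all.

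Igtp, the third regulatory IRG, had counts of 10 and 15 in young ISCs and of 63 and 6 in old ISCs. ISC_22mth pool 1 stood far above the young pools at 4.76 CPM, and ISC_22mth pool 2, at 0.491 CPM, lay below both of them. The log2 fold change of 1.64 (standard error 0.71, edgeR FDR = 0.25) therefore rested on 1 pool. Without ISC_22mth pool 1 the value was -0.77 (edgeR FDR = 0.82), and without ISC_22mth pool 2 it was 2.49 (edgeR FDR = 0.00052). Without a filter on low counts Igtp was also called (edgeR FDR = 0.047). Igtp and Irgm2 overlap in 162 bp of exons on the same strand, and 11.8% of the 50-nt stretches of Igtp transcripts and 6.8% of those of Irgm2 occur in the other gene. Reads there could have been assigned to either gene or dropped.

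**Figure D2:**
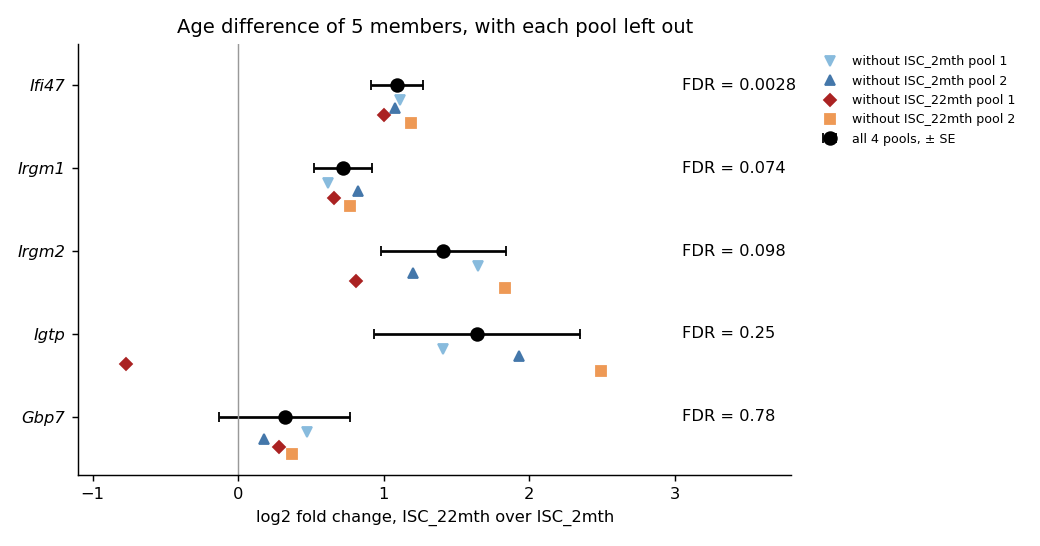
Log2 fold change of ISC_22mth over ISC_2mth for 5 tested members, with all 4 pools (black circle, bar of 1 standard error, edgeR FDR at the right) and with each pool left out (coloured symbols). Ifi47 stayed between 1.00 and 1.19, whereas Igtp went from 2.49 to -0.77 depending on which old pool was left out. Gbp3 is not drawn because both young pools were at 0.

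Iigp1, an effector IRG on chromosome 18 (60376027 to 60392634), had 0 reads in both young pools, 12 reads in ISC_22mth pool 1 and 0 in ISC_22mth pool 2. It was thus detected in 1 of 4 pools, at 0.907 CPM. Against a floor of 3 reads over both young libraries (0.101 CPM), ISC_22mth pool 1 was at least 8.95-fold higher and the old group at least 4.65-fold higher. Without a filter on low counts Iigp1 had edgeR FDR = 0.17.

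Gbp7 was the GBP with the most reads in each pool. Its counts were 28 and 24 in young and 30 and 26 in old ISCs, or 1.76 ± 0.241 and 2.20 ± 0.0993 CPM (mean ± SD, n = 2 pools each). The old pools lay above the young ones by little, and the log2 fold change was 0.32 (standard error 0.45, edgeR FDR = 0.78). It was -0.17 when libraries were scaled by total counts, a scaling that shifted the median of all genes to -0.49.

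Gbp3 had no read in the young pools, 22 reads in ISC_22mth pool 1 and none in ISC_22mth pool 2. Its level in ISC_22mth pool 1 was 1.66 CPM, at least 16.4-fold above the floor of the young group. Taken over both old libraries it was at least 8.53-fold higher. The test did not call it (edgeR FDR = 0.14), but the FDR ranged from 0.0049, by the likelihood ratio test, to 0.75 over 13 alternatives, and 5 of these called it. Among the 5 was the fit without ISC_22mth pool 2, which leaves out the old pool that had no read. Gbp3 passed the filter through ISC_22mth pool 1 alone, so these calls rest on that pool and are a description.

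Gbp2 had 3 reads in ISC_22mth pool 1 and 0 in the other 3 pools, which is at the limit of detection, and no fold is given. Gbp6 had counts of 4 and 5 in young and 9 and 6 in old ISCs, and Gbp9 of 0 and 2 against 1 and 3. Both were too low for a difference to be detectable at this depth. Of the 50-nt stretches of Gbp6, 70.7% occur in other genes, mainly Gm43302 and Gbp10, so that its count is uncertain.

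Levels can be compared between genes only per length. Per kilobase of exon, the order in young ISCs was Ifi47 at 4.08 CPM, Irgm1 at 1.40, Igtp at 0.416, Irgm2 at 0.404, Gbp7 at 0.313, Gbp6 at 0.0509 and Gbp9 at 0.0128 CPM, with Gbp2, Gbp3 and Iigp1 at 0. The ranges of Igtp (0.341 to 0.491), Irgm2 (0.341 to 0.467) and Gbp7 (0.283 to 0.344) overlapped, and those of Gbp9 and of the 3 genes at 0 met at 0. Ifi47, Irgm1 and Gbp6 were each separate from their neighbours. In old ISCs the order of means was Ifi47 at 8.71, Irgm1 at 2.31, Igtp at 1.30, Irgm2 at 1.07, Gbp7 at 0.391, Gbp3 at 0.255, Gbp6 at 0.0983, Iigp1 at 0.0778, Gbp2 at 0.0450 and Gbp9 at 0.0310 CPM per kilobase. In that order the pools of Ifi47 were separate from those of Irgm1 and the pools of Irgm2 from those of Gbp7, and all other neighbours overlapped. Within ISC_22mth pool 1, Igtp (2.35) was level with Irgm1 (2.39), whereas in ISC_22mth pool 2 it was at 0.243 against 2.22.

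The 2 old pools thus differed for some members and not for others. ISC_22mth pool 1 over pool 2 gave a ratio of 1.14 for Ifi47 (95% exact interval 0.962 to 1.36), 1.08 for Irgm1 (0.865 to 1.34) and 1.07 for Gbp7 (0.609 to 1.88). The same ratio was 2.02 for Irgm2 (1.31 to 3.17) and 9.70 for Igtp (4.22 to 27.4), and its lower bound was 5.06 for Gbp3 and 2.57 for Iigp1. No molecular identifiers were used, so copies of 1 molecule are counted separately and the intervals cover counting error only. They compare 2 libraries, not 2 conditions. In the young pools every member's interval with reads in either pool included 1, Igtp among them at 0.694 (0.279 to 1.65). Of the 6 tested members, 3 (Igtp, Irgm2 and Gbp3) were more than 2-fold higher in ISC_22mth pool 1 than in pool 2. The share of all genes tested was 5.52%, but Gbp3 had passed the filter through that pool alone, so the count is a description. Without Ifi47 and Irgm1, the other 8 members summed to 67 and 65 reads in young ISCs and to 210 and 73 reads in old ISCs.

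**Figure D3:**
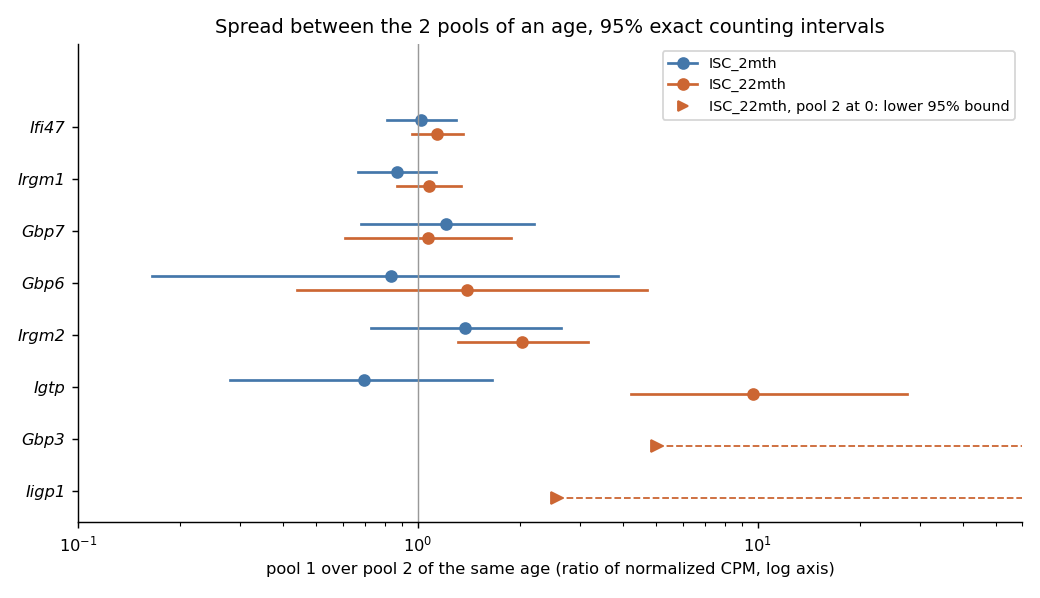
Ratio of normalized CPM of pool 1 to pool 2 within ISC_2mth (blue) and within ISC_22mth (orange) for 8 members, on a log axis, with 95% exact intervals for counting error. Arrows mark the lower bound where ISC_22mth pool 2 had 0 reads. Ifi47, Irgm1, Gbp7 and Gbp6 lie around 1, and Irgm2, Igtp, Gbp3 and Iigp1 lie above 1 in old ISCs.

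Genes with at least 10 reads in ISC_22mth pool 1 and none in the other 3 pools were rare, with 9 of 16859 genes that had 10 or more reads (0.0534%). Genes so confined to another pool were 7 for ISC_2mth pool 1 (0.0415%), 3 for ISC_2mth pool 2 (0.0178%) and 2 for ISC_22mth pool 2 (0.0119%). Gbp3 and Iigp1 were 2 of these 9. The others were F830016B08Rik, an IRG locus of the Iigp1 cluster, Ifit3, an interferon-stimulated antiviral gene, and A430072C10Rik, Fam90a1b, 4930597O21Rik, Gm45299 and Fetub, all named after their values were seen. The IRG loci listed on chromosome 18 (Iigp1, Gm4841, Gm4951 and F830016B08Rik) held 28 reads together in ISC_22mth pool 1 and 0 in each other pool.

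Markers of other epithelial cells also differed between the pools. The 6 Paneth cell markers summed to 806 and 636 CPM in young and to 1930 and 742 CPM in old ISCs, so that ISC_22mth pool 1 was the highest, as for Igtp and Irgm2, and 3 of the 6 were called higher in old ISCs (Defa17, Defa24 and Defa30), where 1.63% of all genes tested were. The 7 enterocyte markers summed to 330 and 456 CPM in young and to 782 and 659 CPM in old ISCs, both old pools being higher, as for Ifi47 and Irgm1. Of these 7, 3 were called higher, Fabp1 with a log2 fold change of 2.35, Sis with 1.38 and Fabp2 with 0.93 (edgeR FDR = 2.4e-06, 3.3e-05 and 0.0040). The 5 tuft cell markers summed to 2.82 and 4.43 against 7.63 and 4.74 CPM, and 3 of them were tested. Dclk1 was called higher (edgeR FDR = 0.026), Trpm5 (0.94) and Pou2f3 (-0.21 on the log2 fold change scale) were not called, and Il25 and Gnat3 had no read in any pool. The 6 goblet markers (1770 to 2340 CPM in young, 1880 to 2400 CPM in old) and the 6 enteroendocrine markers (26.5 to 128 CPM in young, 78.4 to 114 CPM in old) overlapped between the ages, and the 6 endothelial markers summed to at most 0.654 CPM. For leukocytes, 3 of 24 markers were tested and Itgam alone was called, at 11.6 CPM in young and 19.9 CPM in old ISCs, and the whole list summed to 18.9 and 19.3 CPM in young and 25.5 and 25.7 CPM in old ISCs. Most of this sum was Itgam (10.2 and 13.0 against 19.2 and 20.6 CPM), and the log2 fold changes of the other 2 tested markers were below 0, at -0.79 for Cd68 and -0.42 for Cd14. The 21 leukocyte markers that did not pass the filter summed to 17 and 30 reads in young and 36 and 12 reads in old ISCs, and Ptprc, which encodes CD45, had 2 reads in ISC_22mth pool 1 and 0 elsewhere. The part of these cell types in the GBP and IRG values was not tested.

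The genes whose levels over the 4 pools were closest to the mean profile of the 6 tested members (Euclidean distance of log2 CPM relative to young ISCs) were 5730409E04Rik at 0.113, the Paneth cell defensin Defa30 at 0.175, 9230114K14Rik at 0.178, Defa17, another defensin, at 0.195, and the heat shock gene Hspa2 at 0.244. The members' mean profile was 1.67 in ISC_22mth pool 1 and 0.34 in ISC_22mth pool 2 on the log2 scale. Gbp3, which passed the filter through ISC_22mth pool 1 alone, is part of this profile and draws it toward that pool. Ifi47, Irgm1 and Gbp7 did not have its shape, with ISC_22mth pool 1 over pool 2 at 1.14, 1.08 and 1.07. With 4 libraries this likeness is a description only.

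Most of the remaining loci of both families had few reads or none. Of 18 other GBP and IRG loci, 5 had no read in any pool (Gbp2b, Gbp5, Gbp10, Gbp11 and 9930111J21Rik1), 4 had reads in ISC_22mth pool 1 only (Tgtp1, Gm4841, Gm4951 and F830016B08Rik), and 2 were tested. Gbp10 and 9930111J21Rik1 share 84.1% and 83.2% of their 50-nt stretches with other genes, so that reads from them may have been left uncounted or assigned elsewhere. Gbp4 had 0 and 2 reads in young and 6 and 0 in old ISCs, and Gbp8 had 4 and 2 against 6 and 3. Tgtp1 and Tgtp2, near-identical IRG copies that share 81.2% and 86.6% of their 50-nt stretches with other genes, held 3 reads together in ISC_22mth pool 1 and 1 in ISC_22mth pool 2. Gm5431 had counts of 2 and 4 in young and 16 and 12 in old ISCs, a log2 fold change of 2.39 (standard error 0.95, edgeR FDR = 0.20), and shares 37.3% of its stretches with other IRG loci. Irgq, a divergent IRG-like gene, had counts of 267 and 276 in young and 144 and 177 in old ISCs, with a log2 fold change of -0.53 (standard error 0.19, edgeR FDR = 0.15).

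Of the listed genes that switch the family on, Irf1 fell and no other was called. Of 10 interferon ligands listed, 9 had no read in any pool, Ifng and Ifnb1 among them, which allows at most 3 reads, or 0.198 to 0.245 CPM, per library. None of the 9 receptor and kinase genes was called, with log2 fold changes between -0.18 and 0.53. The receptor of interferon gamma was detected through both chains, with Ifngr1 at 34.0 and 37.4 CPM and Ifngr2 at 36.8 and 35.9 CPM in young and old ISCs. Irf1, a transcription factor that binds ISRE sites, had counts of 240 and 273 in young and 144 and 113 in old ISCs, and the ages did not overlap. It was the 1 gene called of 8 transcription factor genes (log2 fold change -0.78, standard error 0.19, edgeR FDR = 0.034), where 0.628% of all genes tested were called lower. Exons of Irf1 overlap Gm17334, on the opposite strand, over 135 bp. Irf1 was called in 9 of 15 alternatives, with values between -1.27 and -0.67. It lost its call by DESeq2 (DESeq2 FDR = 0.095) and with offsets for GC content and length (edgeR FDR = 0.064), also when a block for replicate was added (edgeR FDR = 0.093). The call was also lost without ISC_2mth pool 1 (log2 fold change -0.84), without ISC_2mth pool 2 (-0.72) and without ISC_22mth pool 2 (-0.67).

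Stat2, which acts with IRF9 at ISRE sites, was at 0.15 (edgeR FDR = 0.81), Irf9 at 0.37 (edgeR FDR = 0.42), Irf2 at 0.18 (edgeR FDR = 0.57) and Irf8 at -0.03 (edgeR FDR = 0.95) on the log2 fold change scale. Nlrc5, the transactivator of MHC class I genes, had 4 and 6 reads in young and 27 and 5 reads in old ISCs, and was high in ISC_22mth pool 1 alone (log2 fold change 1.84, standard error 0.91, edgeR FDR = 0.31). Ciita, the transactivator of MHC class II genes, had 12 and 18 against 34 and 43 reads, with both old pools above the young (log2 fold change 1.58, standard error 0.48, edgeR FDR = 0.097). None of the 4 tested feedback inhibitors was called, Ptpn2 and Pias1 having the highest CPM, with log2 fold changes of 0.45 and -0.18.

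Downstream, the GBPs act with inflammasome proteins, and 3 of 7 tested genes of that list were called higher, against 1.63% of all genes tested. Aim2, a sensor of DNA in the cytosol, had counts of 23 and 39 in young and 109 and 80 in old ISCs, and went from 2.08 ± 0.704 to 7.39 ± 1.20 CPM (mean ± SD, n = 2 pools each), a log2 fold change of 1.82 (standard error 0.32, edgeR FDR = 0.0045). It was called in all 15 alternatives. Casp1, the inflammasome protease, was at 42.8 and 65.3 CPM (log2 fold change 0.61, standard error 0.13, edgeR FDR = 0.022), and Casp4, which senses lipopolysaccharide in the cytosol, at 9.61 and 16.7 CPM (0.79, standard error 0.19, edgeR FDR = 0.034). Casp1 was called in 11 and Casp4 in 8 of 15 alternatives. Offsets for GC content and length gave a log2 fold change of 0.38 for Casp1 (edgeR FDR = 0.20) and 0.65 for Casp4 (edgeR FDR = 0.12). Scaling by total counts, which shifted the median of all genes to -0.49, gave 0.12 for Casp1 (edgeR FDR = 0.53) and 0.31 for Casp4 (edgeR FDR = 0.26). Leaving out ISC_2mth pool 1 took both above the threshold, with log2 fold changes of 0.49 and 0.72 (edgeR FDR = 0.27 and 0.22), and leaving out ISC_2mth pool 2 or ISC_22mth pool 2 did so for Casp4, with 0.87 and 0.68 (edgeR FDR = 0.058 and 0.061). In Aim2, Casp1 and Casp4 the ages did not overlap, as in Ifi47, and not in the order of Igtp or Gbp3. Of the rest of the list, Pycard, the adaptor, had a log2 fold change of 0.33 (edgeR FDR = 0.21), Nlrc4 of 0.02 (edgeR FDR = 0.96), Gsdmd, the pore-forming protein, of -0.10 (edgeR FDR = 0.91) and Il18 of 1.23 (edgeR FDR = 0.31). In all, 4 of 47 tested genes of the interferon pathway and partner lists were called, against 2.26% of all genes tested in either direction.

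**Figure D4:**
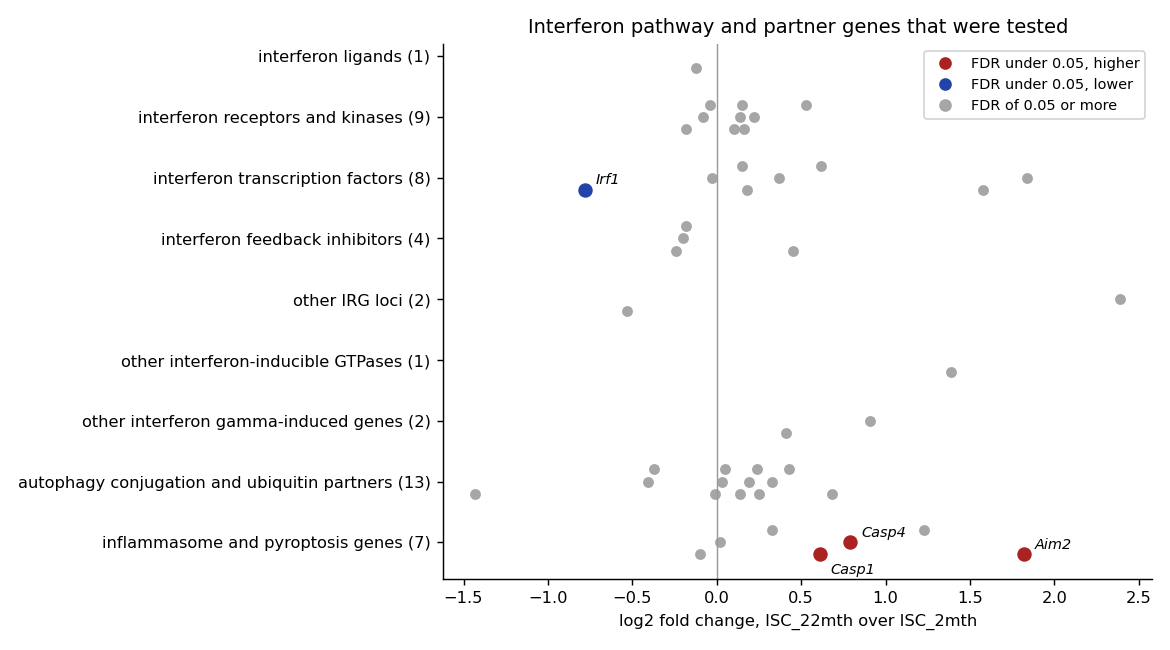
Log2 fold change of ISC_22mth over ISC_2mth for 47 tested genes in 9 lists (number tested in brackets). Each point is a gene, spread vertically for legibility, and the 4 genes with edgeR FDR under 0.05 are named. Aim2, Casp1 and Casp4 were higher and Irf1 was lower in old ISCs.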

How the data were processed

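RNA of FACS-isolated ISCs (2 ISC_2mth and 2 ISC_22mth pools of 5 animals) was amplified by SPIA for single-end sequencing. Reads were trimmed by the authors with Trimmomatic (0.30), aligned them with STAR (2.4.2a) to GRCm38, counted them in exons of GENCODE vM15 genes with featureCounts, and deposited raw counts per gene. The strand setting and the treatment of reads with several alignments are not given in the sources used here.

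A gene was kept if any pool had over 5 reads and over 1 CPM of it (13692 of 52459). Ages were compared with edgeR (4.0.16, R 4.3.3), by TMM and the quasi-likelihood functions (glmQLFit, then glmQLFTest) without covariates. P-values were adjusted by Benjamini-Hochberg over these genes, and FDR under 0.05 was called. The standard error is the log2 fold change divided by the root of F. The paper's limma voom with sample quality weights (limma 3.58.1), DESeq2 (1.42.0), other normalizations, filters, offsets for GC content and length (lowess, span 0.3), the replicate block and the omission of each pool were alternatives, 15 in all. With a pool left out, the lone pool of an age was assumed to vary like the other age. The fits were tested on simulated counts. Pools of an age differed by more than sampling noise (chi-square per gene 9.42 and 7.11). The study calls the pools biological replicates.

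Named genes were all 10 members, genes of the other lists with FDR under 0.05, tested loci of both families and interferon transcription factors, the most abundant of other lists, and the 5 genes nearest in profile (prior count 2). Members and lists were chosen with earlier results of these data known. Names were matched to GENCODE vM21 (47976 of 52459 names matched 1 gene), which gave exonic lengths, overlaps and 50-nt stretches shared with other transcripts.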

Additional observations from a re-analysis of the deposited data

How the results depend on the processing

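Of the members, 1 was called with all 4 pools, and the number was 4 by edgeR's likelihood ratio test and without a filter, 2 with total counts, and between 1 and 5 with a pool left out, the 5 without ISC_22mth replicate 2. Their median log2 fold change moved from 1.25 to 0.75 with total counts and 0.88 with at least 10 reads in every library, and was between 0.66 (without ISC_22mth replicate 1) and 1.51 with a pool left out. The direction reversed for Gbp7 with total counts (-0.17) and for Igtp without ISC_22mth replicate 1 (-0.77, against 2.49 without ISC_22mth replicate 2). Of all genes tested, 309 were called (223 higher and 86 lower), against 197 by DESeq2, 611 by the likelihood ratio test, 4632 with total counts (96 higher and 4536 lower), 554 without a filter, 176 with offsets for GC content and length, and between 151 (without ISC_2mth replicate 1) and 710 (without ISC_22mth replicate 2) with a pool left out, with 652 without ISC_22mth replicate 1. Total counts shift the median of all genes to -0.49, and the other causes were not tested. Replicate numbers are shared between ages, but deviations of same-numbered pools did not correlate (-0.000148). With 2 pools per age this is 1 comparison, and it cannot show whether same-numbered pools were processed together. With the replicate block, 624 genes and 4 members (Ifi47, Irgm1, Irgm2 and Gbp3) were called, and with the block and the offsets 117 genes and 1 member (Ifi47). At 1 to 3 reads, as for Gbp2 and Gbp9, depth allows no comparison.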

Other observations

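Genes of 2 further lists were measured beside the GTPases. The ubiquitin-like conjugation genes that deliver GBPs and IRGs to vacuoles, together with ubiquitin partners, were all detected, and none of the 13 was called by edgeR's quasi-likelihood test. Their log2 fold changes lay between -1.43 (Map1lc3a, with 14 and 15 reads in young and 2 and 7 in old ISCs) and 0.68 (Atg5, edgeR FDR = 0.13), with a median of 0.14. At an unadjusted edgeR p under 0.05 there were 2 of the 13, Atg5 and Traf6, and 2316 of all 13692 genes tested, a like share. Per kilobase of exon the highest levels were those of Gabarap at 18.5 and 18.9 CPM, Atg3 at 6.60 and 6.84 CPM and Traf6 at 4.98 and 6.26 CPM, each in young and old ISCs.

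Other genes that interferons induce were sparse. Of 8 such genes, Cd274 and Gch1 were tested and neither was called. Cxcl9, a chemokine, had 9 reads in ISC_22mth pool 1 and 0 in the other 3 pools, and Mx2, of the Mx family of dynamin-like GTPases and annotated as a polymorphic pseudogene in GENCODE vM21, had 5 and 7 reads in young and 27 and 1 reads in old ISCs (log2 fold change 1.39, standard error 1.01, edgeR FDR = 0.52). Cxcl9 was named after its values were seen.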
